A study of Arabidopsis thaliana with 20 samples.

Results

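The UGT genes of Arabidopsis thaliana encode family 1 glycosyltransferases, and 46 of them were followed in rosette leaves over a day. They were the probe sets whose single gene symbol in the array's annotation reads UGT, digits, a capital letter and digits. A pair of UGT genes was not analysed here. The 46 stand among 13356 genes that the annotation names through a probe set of their own, the short DNA probes that together read 1 transcript, and the models covered all 22746 probe sets. Each gene had 1 probe set, and all 46 matched a locus of the TAIR10.1 gene table. A further 3 probe sets that name a UGT together with another gene were not used.

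UGT enzymes move a sugar, most often glucose, from a nucleotide-activated donor such as UDP-glucose to a small molecule. The acceptors are hormones, flavonoids, phenylpropanoids, glucosinolate precursors, sterols and foreign compounds. Glycosylation commonly makes them more soluble, less active or ready for storage in the vacuole, and beta-glucosidases can release them again. The digits of a symbol give the family, the letter the subfamily and the last digits the member, so UGT71C4 and UGT71C5 are close relatives.

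The plants were wild type (WT) or Atss3, a mutant in starch synthase 3, an enzyme that builds leaf starch. All were 6 weeks old and kept in short days, with lights on for 8 h and off for 16 h. Leaves 5 to 8 were harvested at 1 h and 4 h after the lights came on, then at 8.5 h, at 12 h and at 16 h, which is 0.5 h, 4 h and 8 h into the dark. Each of the 20 arrays measured leaves pooled from 16 plants, with 2 arrays for each genotype and time. The labels give neither the ecotype nor the kind of Atss3 allele, and the genotype was not checked through the mutated gene's own signal. The 2 arrays come from 2 independent repeats of the experiment, called run 1 and run 2 here. Unless stated otherwise, each p-value rests on the spread between these pools that remains after a shift shared by a run's arrays is removed.

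Values are linear signal intensities, already scaled to a common mean on each array. They do not rank the transcripts of different genes, because probe sets differ in how brightly they hybridise. Fewer cells of a type and less RNA per cell cannot be told apart in pooled leaves. A signal under its array's 40th percentile is called dim here, which was 80.5 to 103.8 units. By that measure 19 genes were dim on 0 arrays and 5 on 1 to 9 arrays, and these 24 are called the brighter genes. Another 6 were dim on 10 to 19 arrays and 16 on all 20. In all, 27 exceeded that percentile on at least 2 arrays. Array medians ran from 151.7 to 178.4.

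Of 17 listed leaf genes 3 had a named probe set, LHCB4.1, LHCB4.2 and PSAE-1, all of the photosynthetic machinery. They were dim on 0 of 20 arrays, with mean signals of 22324, 13287 and 18977, and all 3 were lower in the dark (-0.55, -1.97 and -0.59 log2). The root hair gene EXPA7 was dim on 20 of 20 arrays, while PYK10, a beta-glucosidase abundant in roots, was dim on 1 of 20. PYK10 was higher in the dark by 1.25 log2 (SE 0.207, adjusted p = 0.000214 in limma), and the vascular sucrose exporter SWEET11 by 0.54 (SE 0.097, adjusted p = 4.00e-04). Their part in the night-time differences described here was not tested. None of the 8 marker genes with a probe set was called between genotypes. The GAPDH control probes of the transcript's 3' and 5' ends, whose log2 ratio is a sign of RNA integrity, gave ratios from -0.22 to 0.05 on the 5 WT arrays of run 1 and from 0.15 to 0.71 on the other 15. The same ratio of the actin control ran from 1.41 to 2.85 on the 4 arrays of 1 h and from 2.11 to 3.43 on those of the later times, and its part in the changes over the day was not tested.

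Transcripts of most brighter UGT genes changed over the day. In the linear model across all probe sets (limma, with the run as a block and Benjamini-Hochberg adjustment over 22746), 26 of 46 genes changed over the 5 times, against 44.8% of all probe sets. Of the 24 brighter genes 21 changed, against 66.2% of the 13613 probe sets that were dim on fewer than 10 arrays. The median span of the brighter genes, from the lowest to the highest time mean, was 2.56-fold, and over those 13613 probe sets it was 1.63-fold. Spans ran from 1.15-fold for UGT72E2 to 36.7-fold for UGT76E12, the latter on dim signals at its lowest time. Without the 5 WT arrays of run 1 the model called 23 of 46. Of the 21 brighter genes, 16 were called over time in every alternative. UGT76E11 lost its call in 24 of 30, UGT85A7 in 3, UGT84A4 in 2, and UGT74B1 and UGT87A2 in 1 each.

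**Figure D1:**
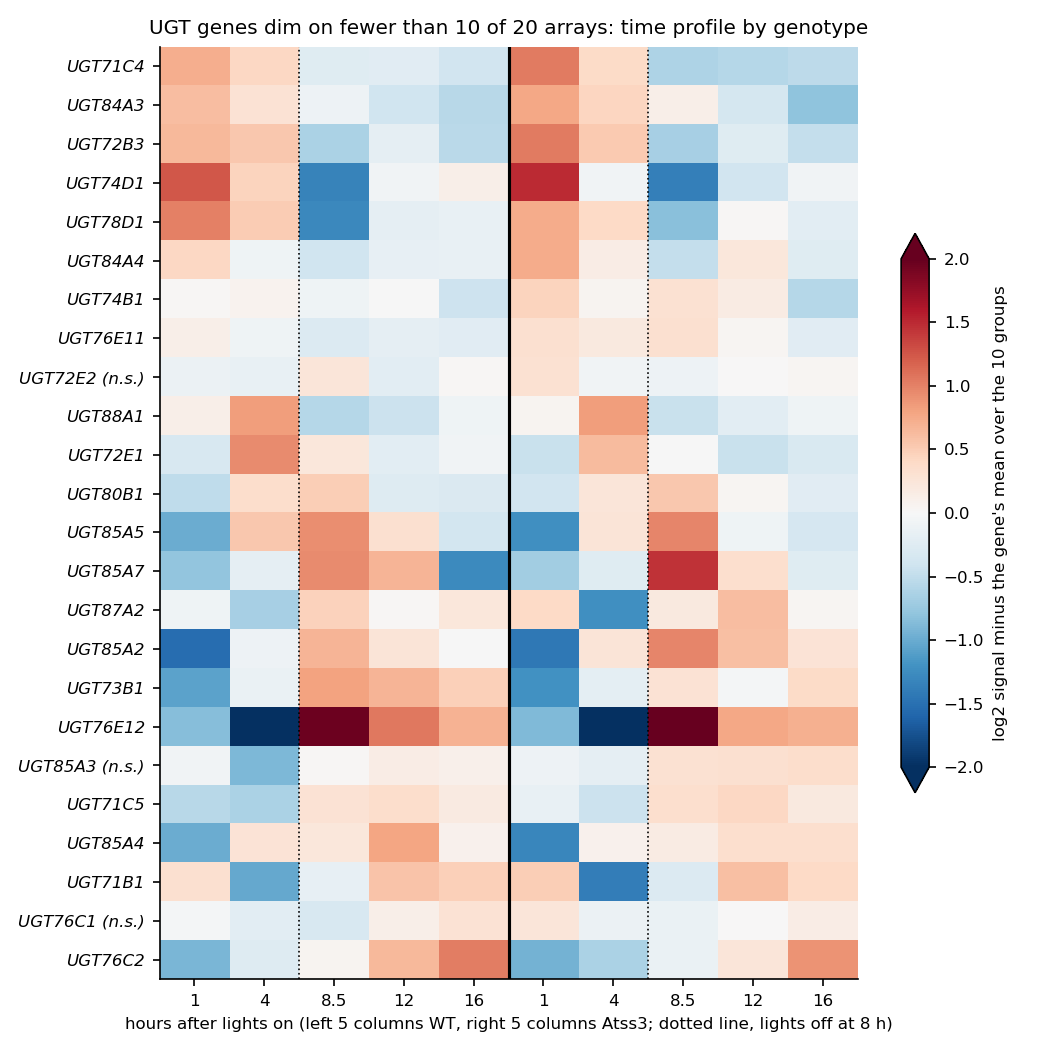
Log2 signal of the 24 brighter UGT genes in each genotype and time, as the difference from each gene's mean over the 10 groups (means of 2 arrays, red higher, blue lower). Genes are ordered by the time of their highest mean; 3 genes marked n.s. did not pass the test over time, and the left and right blocks (WT and Atss3) show similar colours.

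The 21 brighter genes that changed had their highest means at different times: 8 genes peaked at 1 h and 2 at 4 h, 7 had their peak at 8.5 h, 3 at 12 h and 1 at 16 h. Among all 10192 probe sets called over time, the same shares were 26.3%, 18.8%, 20.6%, 16.7% and 17.6%. The lowest mean was that of 1 h in 7 genes, of 4 h in 4, of 8.5 h in 5 and of 16 h in 5, where the shares over all called probe sets were 34.5%, 18.7%, 23.3% and 12.5%. Each genotype and run gives its own series of 5 arrays. The highest array lay at the hour of the highest mean in 4 of 4 series for 13 of the 21 genes, and in at least 3 of 4 for 17. The mean is that of the same 4 series, and the genes were called on them, so such agreement was favoured in advance. Its share over all called probe sets was not computed.

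Early light was the peak for a group with varied substrates. UGT74D1 (AT2G31750), which attaches glucose to auxins, gave 2006 and 1620 units at 1 h in WT and 2180 and 2132 in Atss3 (runs 1 and 2). At 8.5 h it gave 248 and 369 in WT and 310 and 280 in Atss3. All arrays of 1 h lay above all arrays of 8.5 h, and the time means spanned 6.60-fold (adjusted p = 3.42e-08 over the 5 times). From 4 h to 8.5 h it fell by 1.54 log2 (SE 0.149, adjusted p = 2.40e-06), and by 12 h the signals had come back to between 563 and 858.

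UGT78D1 (AT1G30530), which attaches rhamnose to flavonols, followed the same course. Its 1 h signals were 1115 and 1180 in WT and 1096 and 820 in Atss3, and its 8.5 h signals were 349 and 154 in WT and 452 and 223 in Atss3. These sets did not overlap, with a span of 3.84-fold (adjusted p = 2.52e-06), and after 1 h run 1 lay above run 2 at every time in both genotypes. UGT72B3 (AT1G01420), a relative of the UGT72B1 enzyme that conjugates chlorinated phenols, gave 535 and 457 in WT and 572 and 730 in Atss3 at 1 h. At 8.5 h it gave 158 and 259 in WT and 164 and 240 in Atss3, again without overlap. It fell by 1.18 log2 from 4 h to 8.5 h (SE 0.157, adjusted p = 5.43e-05).

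UGT71C4 (AT1G07250) and UGT84A3 (AT4G15490), whose subfamily makes glucose esters of hydroxycinnamic acids such as sinapate, were highest at 1 h too. The time means of UGT71C4 lay between 1250 and 1301 from 8.5 h on, while those of UGT84A3 went on falling, from 802 at 8.5 h to 613 at 12 h and 499 at 16 h. UGT71C4 signals at 1 h were 4145 and 1956 in WT and 3889 and 3176 in Atss3, and at 16 h they were 1394 and 1228 in WT and 1152 and 1239 in Atss3. Those of UGT84A3 went from 1539 and 969 in WT and 1432 and 1286 in Atss3 at 1 h to 529 and 562 in WT and 379 and 548 in Atss3 at 16 h. Neither gene's 1 h arrays overlapped its 16 h arrays, and the differences were 1.34 log2 (SE 0.156) and 1.37 log2 (SE 0.155), with adjusted p of 1.05e-05 and 8.19e-06.

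UGT84A4 (AT4G15500), the UGT84A3 neighbour, was 0.77 log2 higher at 1 h than at 16 h (SE 0.188, adjusted p = 0.00581). UGT74B1 (AT1G24100), which attaches glucose to the sulphur of thiohydroximates in glucosinolate synthesis, was 0.73 higher (SE 0.141, adjusted p = 0.00112). Its signals at 1 h were 2907 and 2383 in WT and 3796 and 3282 in Atss3, and at 16 h 2022 and 1873 in WT and 1582 and 1929 in Atss3. The sets of 1 h and 16 h did not overlap. The time means of UGT74B1 lay between 2696 and 3048 from 1 h to 12 h, with 1844 at 16 h. Its highest mean in WT was at 4 h, and its highest array was at 1 h in 2 of 4 series. Within WT alone neither UGT74B1 nor UGT84A4 was called over time (adjusted p = 0.320 and 0.195 in limma). Within Atss3 alone both were (0.00798 and 0.0165). The genotype by time interaction was not called for either gene (adjusted p = 0.894 and 0.974 in limma).

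Mid light was the peak for UGT88A1 (AT3G16520) and for UGT72E1 (AT3G50740), which conjugates lignin precursors. UGT88A1 gave 7762 and 6495 in WT and 6803 and 7405 in Atss3 at 4 h, and 2910 and 2493 in WT and 2994 and 2860 in Atss3 at 8.5 h. The arrays of 4 h stood above all other arrays of this gene. The fall from 4 h to 8.5 h was 2.53-fold (-1.34 log2, SE 0.093, adjusted p = 1.00e-07). UGT72E1 gave 1459 and 2022 in WT and 1133 and 1666 in Atss3 at 4 h, and 997 and 1096 in WT and 784 and 1006 in Atss3 at 8.5 h. Its fall of -0.67 log2 (SE 0.149, adjusted p = 0.00377) did not pass without the run block (adjusted p = 0.0923), and run 2 lay above run 1 in both genotypes at all 5 times.

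A further group was lowest at 1 h and rose through the light period. UGT85A2 (AT1G22360) gave 154 and 247 in WT and 213 and 203 in Atss3 at 1 h, 454 and 604 in WT and 609 and 731 in Atss3 at 4 h, and 909 and 881 in WT and 1062 and 1149 in Atss3 at 8.5 h. The 3 times did not overlap, and the span was 4.94-fold (adjusted p = 2.97e-08, the smallest among the 46). UGT85A5 (AT1G22370) spanned 4.16-fold (adjusted p = 1.75e-05), from 139 and 138 in WT and 128 and 111 in Atss3 at 1 h to 619 and 448 in WT and 567 and 521 in Atss3 at 8.5 h. Unlike UGT85A2, it was close to its early level again on 1 array of 16 h, WT run 1, at 147. Its 1 h to 16 h difference (-0.75 log2, SE 0.215, adjusted p = 0.0157) did not pass in run 1 alone (-0.34), without Atss3 1 h replicate 2 (-0.67), without Atss3 16 h replicate 2 (-0.68) or without WT 16 h replicate 2 (-0.48).

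UGT80B1 (AT1G43620), a sterol glucosyltransferase, gave 403 and 324 in WT and 451 and 343 in Atss3 at 1 h and 860 and 601 in WT and 961 and 583 in Atss3 at 8.5 h (1.94-fold, adjusted p = 3.95e-05). UGT85A7 (AT1G22340) also peaked at 8.5 h (3.87-fold, adjusted p = 0.0157) but had its lowest mean at 16 h and was dim on 8 of 20 arrays. Its rise from 4 h to 8.5 h was not called (1.40 log2, adjusted p = 0.0586), though it was after dim signals were raised to their array's 40th percentile (2.30-fold, adjusted p = 0.000725). UGT73B1 (AT4G34138), a relative of flavonol glucosyltransferases, was 1.57 log2 lower at 1 h than at 16 h (SE 0.277, adjusted p = 4.91e-04) and dim on 3 of 4 arrays at 1 h, with a difference of -1.19 for raised signals.

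**Figure D2:**
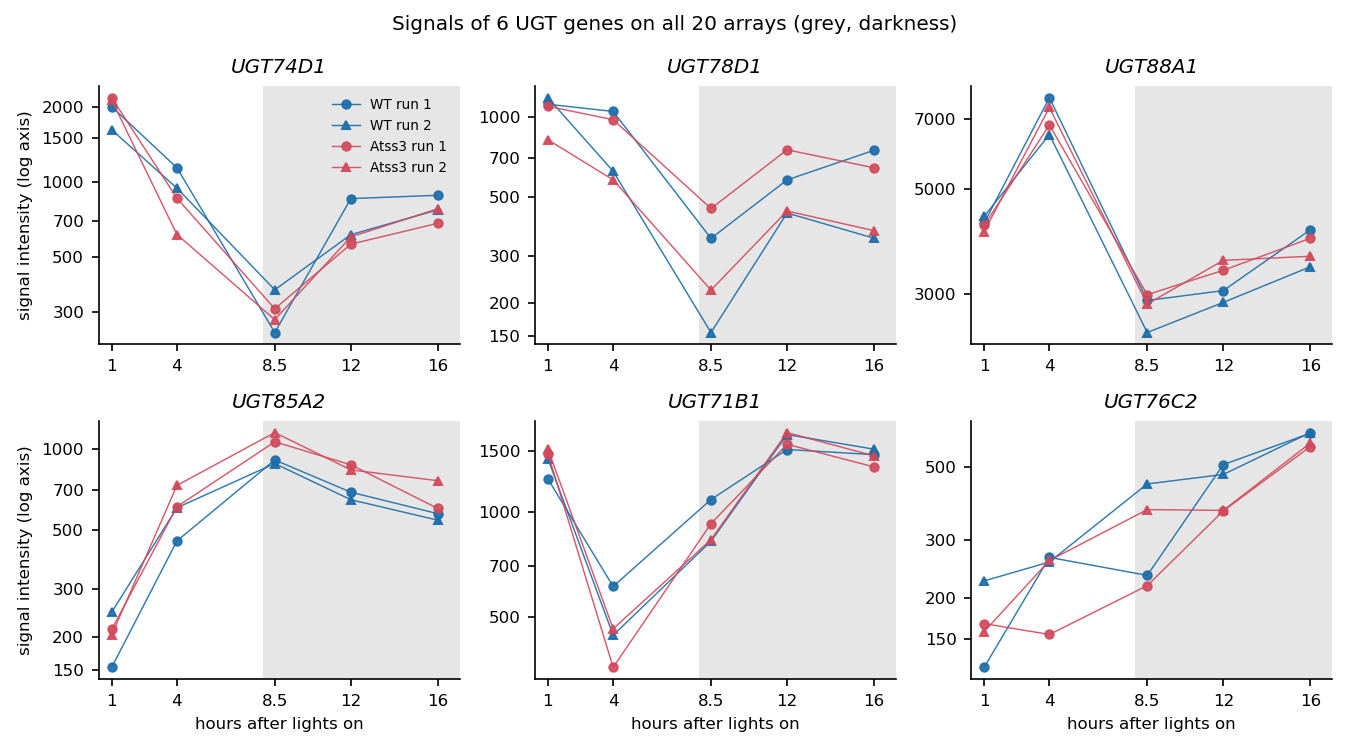
Signal intensity (log axis) of 6 UGT genes against hours after lights on, for WT and Atss3 in runs 1 and 2 (circles and triangles), with darkness in grey. UGT74D1 and UGT78D1 are lowest at 8.5 h, UGT88A1 is highest at 4 h, UGT85A2 at 8.5 h, UGT71B1 lowest at 4 h and UGT76C2 highest at 16 h in all 4 series.

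UGT71B1 (AT3G21750) and UGT87A2 (AT2G30140), the latter linked to flowering time and stress, shared a dip at 4 h. UGT71B1 gave 614 and 445 in WT and 360 and 464 in Atss3 at 4 h, against 1245 and 1422 in WT and 1472 and 1517 in Atss3 at 1 h. By 12 h it gave 1512 and 1669 in WT and 1565 and 1690 in Atss3, so that all 4 h arrays lay under all other arrays of this gene (span 3.48-fold, adjusted p = 1.01e-07). UGT87A2 gave 870 and 480 in WT and 555 and 344 in Atss3 at 4 h and 1216 and 1636 in WT and 1102 and 1243 in Atss3 at 8.5 h. The rise of 1.27 log2 (SE 0.269, adjusted p = 0.0027) did not pass in run 1 alone (0.74 log2, adjusted p = 0.0571).

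UGT76E12 (AT3G46660) had the widest swing at the same step. Its signals went from 49.1 and 27.4 in WT and 3.61 and 29.3 in Atss3 at 4 h, all dim, to 635 and 550 in WT and 795 and 926 in Atss3 at 8.5 h. With dim signals raised in this way it was at least 7.47-fold higher at 8.5 h (2.90 log2, SE 0.448), and the deposited signals gave 5.20 log2 (SE 0.695, adjusted p = 5.68e-05). By 16 h its arrays had spread from 94.2 to 663.

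Beside UGT71B1, 3 of the brighter genes that changed had their highest mean at 12 h or 16 h. UGT76C2 (AT5G05860), which attaches glucose to cytokinins, gave 123 and 226 in WT and 167 and 158 in Atss3 at 1 h, and 635 and 638 in WT and 578 and 593 in Atss3 at 16 h. The 16 h arrays were above all others of this gene, and it was 3.70-fold lower at 1 h (-1.89 log2, SE 0.201, adjusted p = 4.45e-06). UGT71C5 (AT1G07240), which conjugates abscisic acid, gave 318 and 396 in WT and 357 and 474 in Atss3 at 4 h and 790 and 632 in WT and 688 and 783 in Atss3 at 12 h. Its highest time mean was at 12 h and its lowest at 4 h, 1.88-fold apart (adjusted p = 3.07e-04 over the 5 times).

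The UGT71C5 difference of 1 h from 16 h was smaller (-0.53 log2, SE 0.152, adjusted p = 0.0153) and did not pass in run 1 alone (-0.37), in run 2 alone (-0.69), or without Atss3 16 h replicate 2 (-0.41), WT 1 h replicate 2 (-0.42) or WT 16 h replicate 1 (-0.47). UGT85A4 (AT1G78270) gave 89.4 and 125 in WT and 81.0 and 89.0 in Atss3 at 1 h, and 320 and 409 in WT and 270 and 258 in Atss3 at 12 h, without overlap (3.26-fold, adjusted p = 2.39e-06).

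Some of the brighter genes were not called over the 5 times or lay at the limit. UGT76C1 (AT5G05870), a cytokinin glucosyltransferase like UGT76C2, had signals of 273 ± 46.3 (SD, n = 20 arrays) and was not called over the 5 times (adjusted p = 0.118 in limma). UGT72E2 (AT5G66690), which glucosylates monolignols, had 129 ± 21.8 (SD, n = 20 arrays), spanned 1.15-fold and was not called (adjusted p = 0.833 in limma). UGT85A3 (AT1G22380), at 107 ± 24.7 (SD, n = 20 arrays), missed the threshold (adjusted p = 0.0686 in limma). It passed with the filter on dim probe sets (0.0367), with raised signals (0.0362), after quantile normalization (0.0431) and without WT 4 h replicate 2 (0.00757). With raised signals UGT85A3 was higher in the dark by 0.30 log2 (SE 0.0765, adjusted p = 0.00468 in limma). UGT76E11 (AT3G46670) lay at the limit (1.36-fold, adjusted p = 0.0497) and was not called in 24 of 30 alternatives (adjusted p from 0.0168 to 0.394 over the 30). Its 1 h arrays all lay above its 16 h arrays (0.45 log2, SE 0.116, adjusted p = 0.00884 in limma).

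Dark and light were set against each other by taking the average of 1 and 4 h from that of 12 and 16 h, so the dark itself and the hour cannot be told apart. Of the 46 genes 23 passed, 11 higher and 12 lower in the dark, where 35.2% of all probe sets passed, 19.8% higher and 15.4% lower. The median difference of the 46 was 0.05 log2, with 23 above 0, and that of all probe sets -0.03, with 47.8% above 0. Among the 24 brighter genes 9 were higher and 10 lower, against 51% of probe sets as bright that passed. Within WT alone 15 genes passed, 7 higher and 8 lower (22.8% of all probe sets, 13.2% higher and 9.67% lower), and within Atss3 alone 20, 9 higher and 11 lower (25.4%, 14.4% and 11.1%). Atss3 and WT did not pass a test of unequal dark minus light differences for any gene (0 of 46 in limma, 0% of all probe sets), with 4 of 46 (8.70%) at an unadjusted p under 0.05 and 5.11% of all probe sets.

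The largest rises among the brighter genes were UGT76E12 (2.73 log2, SE 0.491, adjusted p = 4.36e-04, and 1.34 with raised signals), UGT76C2 (1.39, SE 0.142), UGT73B1 (1.02, SE 0.196, and 0.83 with raised signals), UGT85A2 (0.98, SE 0.093), UGT71B1 (0.92, SE 0.089) and UGT85A4 (0.87, SE 0.107). The largest falls were UGT71C4 (-1.07, SE 0.110), UGT84A3 (-1.05, SE 0.110), UGT72B3 (-1.05, SE 0.111), UGT74D1 (-0.88, SE 0.105), UGT78D1 (-0.80, SE 0.119) and UGT88A1 (-0.66, SE 0.0655). Each of these 12 kept its sign in 4 of 4 series of a genotype and run. The light and dark arrays (8 each) of UGT76C2, UGT71C4, UGT84A3 and UGT72B3 did not overlap, and those of the other 8 did. These 12 were picked for large differences on the same arrays, which favours a shared sign and no overlap. The share of all probe sets without overlap was not computed. For UGT71B1 and UGT88A1 the arrays of 4 h stood apart from those of 1 h, lower and higher.

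**Figure D3:**
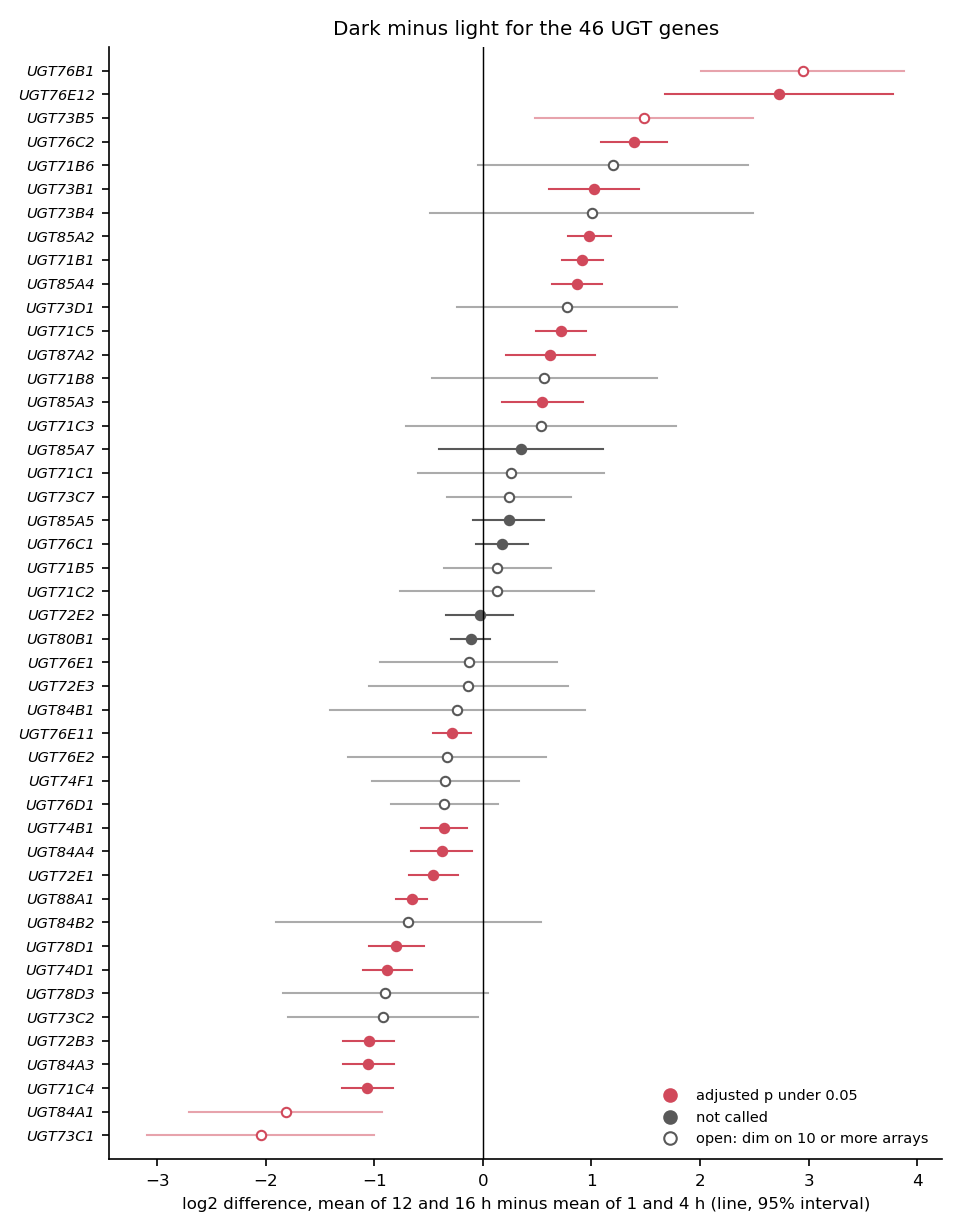
Dark minus light difference (log2, horizontal axis) of all 46 UGT genes with 95% intervals from limma, each for its gene alone. Red genes passed the threshold (23 of 46); open circles were dim on 10 or more arrays, and their intervals are wide.

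The step from late night to early light, 1 h minus 16 h, was called for 16 of 46 genes (29.1% of all probe sets), 9 higher and 7 lower at 1 h (12.3% and 16.9% of all probe sets). Of the 24 brighter genes 14 were called, against 43.6% of probe sets as bright. UGT84A3, UGT72B3 (1.36 log2, SE 0.157), UGT74D1 (1.34, SE 0.149), UGT71C4, UGT78D1 (1.06, SE 0.168) and UGT84A4 had the largest rises among the brighter genes. UGT76C2, UGT85A2 (-1.61, SE 0.132), UGT73B1, UGT85A4 (-1.36, SE 0.151), UGT85A5 and UGT71C5 fell. Within single runs UGT84A4 did not pass (0.66 and 0.88 log2). The 2 dim genes among the 16, UGT84A1 and UGT76B1, were not called with raised signals (adjusted p = 0.530 and 0.0896 in limma).

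From 4 h of light to 0.5 h of darkness 14 of 46 genes were called (22.5% of all probe sets), 8 higher and 6 lower at 8.5 h (10.7% and 11.8% of all probe sets), and 11 of the 24 brighter genes against 33.9%. UGT76E12, UGT87A2, UGT71B1 (0.98 log2, SE 0.126), UGT71C5 (0.84, SE 0.152) and UGT85A2 (0.75, SE 0.132) rose. UGT74D1, UGT78D1 (-1.52, SE 0.168), UGT88A1, UGT72B3, UGT71C4 (-0.83, SE 0.156) and UGT72E1 fell. UGT85A2 did not pass in run 2 alone (0.60 log2, adjusted p = 0.0983). The other rises were those of the dim genes UGT71B6, UGT76B1 and UGT76E1. With raised signals UGT71B6 and UGT76B1 were not called (adjusted p = 0.627 and 0.990 in limma). UGT76E1 was dim on all 20 arrays, so no change is shown for it.

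The genes were also grouped by known substrate. The shares over all probe sets in the dark, 19.8% higher and 15.4% lower, are the background of these role counts, which were not tested against it. Of 11 hormone genes 3 were called higher, among them UGT76B1 on mostly dim signals, and 2 lower. One of the lower, UGT73C1, was dim on every array, so no change is shown for it. Of the 11, 4 were among the brighter genes. UGT74F1, which glucosylates salicylic acid, UGT84B1 and UGT84B2, of auxin conjugation, and UGT73C1 were dim on 20 of 20 arrays, and UGT71B6, of abscisic acid conjugation, and UGT76D1 on 19. Among 5 flavonoid genes 2 were higher and 2 lower. One of the lower, UGT84A4, has close relatives that act on hydroxycinnamic acids and could as well be placed in the next group. The fifth, UGT78D3, an arabinosyltransferase of flavonols, was dim on all 20. The phenylpropanoid, lignin and sinapate group had 0 higher and 4 lower of 6. Of the 4 that were lower, UGT84A1 was dim on 18 of 20 arrays and was not called with raised signals (adjusted p = 0.478), and of the other two, UGT72E2 was not called and UGT72E3 was dim on all 20. Of 3 stress and defence genes 2 were higher, UGT87A2 and UGT73B5, the second dim on 18 of 20 and not called with raised signals. The roles were assigned from general knowledge, and 19 genes had none.

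By family, all 5 UGT85 genes were among the brighter ones, and 4 of them changed over the day. The UGT71 family had 3 brighter genes of 9, all 3 changed, and the UGT73 family 1 of 7. Of 8 UGT76 genes 4 were brighter and 3 of those changed, and of 5 UGT84 genes 2 were brighter and both changed. In the dark 3 UGT85 genes were higher and 0 lower, and 0 UGT84 genes were higher and 3 lower. Among these 3 was UGT84A1, which was not called with raised signals (adjusted p = 0.478 in limma). Over all probe sets 19.8% were higher and 15.4% lower in the dark. Of the probe sets dim on fewer than 10 arrays 66.2% changed over the day. The family counts were not tested against these shares.

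Many UGT genes sit side by side. In the TAIR10.1 gene order, 17 pairs of the 46 had at most 2 protein-coding genes between them, 14 of them with 0 between, and 29 genes belonged to such pairs. In 7 pairs both genes were brighter, in 7 both were not, and in 3 only 1 was. Of the 7 brighter pairs 4 had their highest mean at the same hour. Among these 4 is the pair of UGT76C2 and UGT76C1, the latter not called over time. The share among other pairs of genes was not computed. No probe set of the 46 carries the suffix that marks probes shared between transcripts.

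Neighbours with different courses included UGT71C5 and UGT71C4, which adjoin. UGT71C5 was higher in the dark by 0.72 log2 (SE 0.107, adjusted p = 7.95e-05) and UGT71C4 lower by -1.07, each in 4 of 4 series. UGT76E12 peaked at 8.5 h, while UGT76E11, 1 gene away, spanned 1.36-fold and was lower in the dark by -0.28 (SE 0.082, adjusted p = 0.0136). UGT76C2 and UGT76C1 adjoin and both had their highest mean at 16 h, but spanned 3.70-fold and 1.37-fold. In the row of 4 UGT85A genes, UGT85A7, UGT85A2 and UGT85A5 were highest at 8.5 h, and UGT85A3, not called over time, at 12 h. Differences between neighbours were not tested, since the probe sets are not calibrated to each other.

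**Figure D4:**
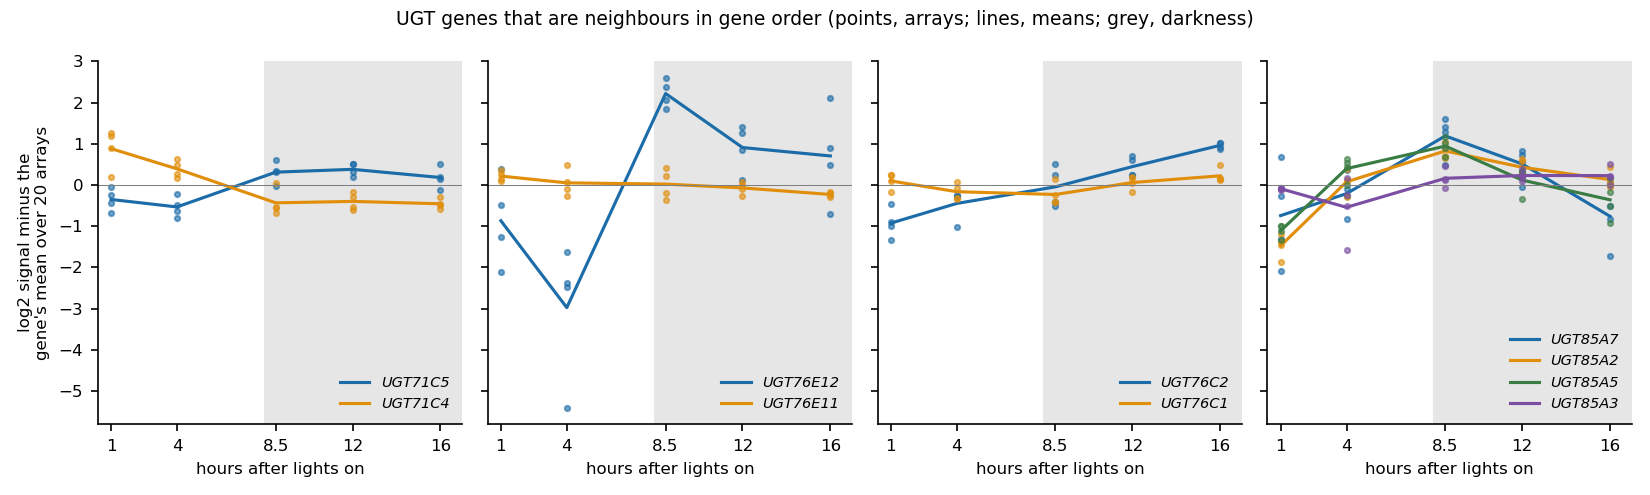
Log2 signal minus each gene's mean over 20 arrays, against hours after lights on, for 4 sets of neighbouring UGT genes (points, arrays; lines, time means; darkness in grey). UGT71C5 and UGT71C4 run in opposite directions, UGT76E11 and UGT76C1 stay nearly flat beside UGT76E12 and UGT76C2, and UGT85A7, UGT85A2 and UGT85A5 peak at 8.5 h.

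Calls among the 22 dim genes rested on signals near the floor. Over the 5 times 5 of these were called: UGT76B1, UGT84A1, UGT73C1, UGT73C2 and UGT76E1. UGT76B1 (AT3G11340), which conjugates isoleucic acid and salicylic acid, was dim on all 12 arrays of 1, 4 and 8.5 h. At 12 h it gave 48.1 and 104 in WT and 182 and 902 in Atss3, and at 16 h 87.6 and 136 in WT and 130 and 305 in Atss3. With raised signals it was still called over time (adjusted p = 0.0176) and higher in the dark by 0.84 log2 (SE 0.213, adjusted p = 0.00405). The same 2 Atss3 arrays of run 2 were the highest for UGT73B5 (AT2G15480), a gene induced by pathogens, at 306 and 104, where its other arrays reached 64.9. UGT73B5 was called in the dark (1.48 log2, SE 0.469, adjusted p = 0.0225) but not with raised signals (0.19 log2, adjusted p = 0.329).

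UGT84A1 (AT4G15480), beside UGT84A3, gave 91.1 and 10.3 in WT and 122 and 46.1 in Atss3 at 1 h, and 2.64 to 7.43 on the 16 arrays of the other times. It was called over time (adjusted p = 3.98e-04) but not with raised signals (0.913). UGT73C1, UGT73C2 and UGT76E1 lay under the 40th percentile on all 20 arrays, so no change is shown for them.

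Between the genotypes 0 of 46 UGT genes were called in limma over the day, where 2 of 22746 probe sets (0.00879%) were called. Before adjustment 5 of 46 (10.9%) had p under 0.05, as did 11.5% of all probe sets. The median difference was 0.06 log2, with 26 of 46 above 0, and 0.03 over all probe sets, with 56.8% above 0. In the 19 genes that were never dim the differences ran from -0.23 to 0.28 log2. Their 95% intervals lay between -0.50 and 0.45, so a change of more than 1.41-fold in either direction was outside the interval of each of these 19 genes. Among the 24 brighter genes the bounds were -1.26 and 0.92. The model treats the arrays of the 5 times as independent. It has no term for a genotype difference that varies between the 2 runs, so these intervals may be too narrow.

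The 3 smallest p-values belonged to UGT76E11, UGT85A2 and UGT71B5. UGT76E11 signals had a median of 488 in WT (lowest 431, highest 619, n = 10 arrays) and 619 in Atss3 (453 to 779, n = 10 arrays), and the ranges overlapped. The difference was 0.26 log2 (SE 0.0735, adjusted p = 0.205 in limma), and in 9 of 10 comparisons within a time and run Atss3 was higher. UGT85A2 differed by 0.28 log2 (SE 0.083, adjusted p = 0.240 in limma), higher in 9 of 10 pairs. UGT71B5, dim on 19 arrays, differed by 0.61 log2 (SE 0.207, adjusted p = 0.281 in limma), also higher in 9 of 10.

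**Figure D5:**
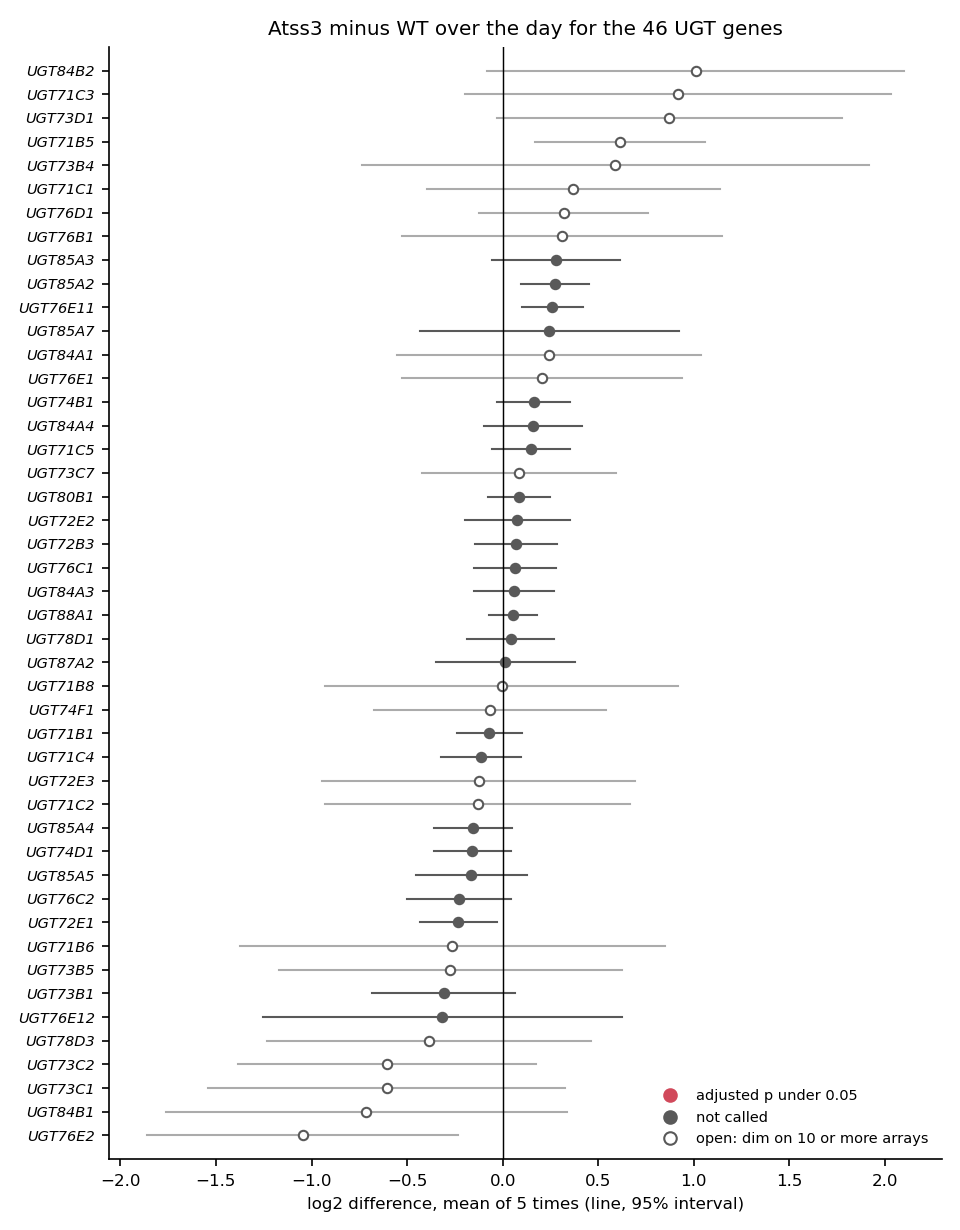
Atss3 minus WT difference (log2, mean of 5 times, horizontal axis) of all 46 UGT genes with 95% intervals from limma, each for its gene alone. No gene passed the threshold, and the filled circles, genes dim on fewer than 10 arrays, have the narrower intervals.

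At single times 0 of 46 genes were called at any of the 5 hours in limma, while 11, 4, 1, 3 and 3 probe sets (0.0484%, 0.0176%, 0.0044%, 0.0132% and 0.0132%) were called, in order of time. Before adjustment 3, 2, 3, 1 and 1 UGT genes had p under 0.05, as did 8.35%, 4.00%, 10.05%, 9.28% and 3.43% of all probe sets. At 8.5 h UGT76E11 came nearest, with 491 and 431 in WT and 749 and 653 in Atss3 (0.61 log2, SE 0.164, adjusted p = 0.228 in limma). UGT73D1 and UGT71B5 followed on dim signals. At 4 h UGT84B2 (dim), UGT74D1 (-0.51 log2, SE 0.210, adjusted p = 1 in limma) and UGT85A3 (0.73, SE 0.349) had the smallest p.

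At 12 h these were UGT76B1 (2.51 log2, SE 0.875, adjusted p = 0.359 in limma), UGT85A4 (-0.45, SE 0.213) and UGT73B5. At 1 h they were UGT76E2, UGT73C1 and UGT71B5, and at 16 h UGT78D3, UGT84B1 and UGT71C2, with dim signals on most or all arrays.

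The time course was tested in each genotype too. It was called for 18 of 46 genes in WT (29% of all probe sets) and for 21 in Atss3 (32.5%), with 17 called in both. The genotype by time interaction was called for 0 of 46 in limma and for 0 of all probe sets (0%), with 1 of 46 at an unadjusted p under 0.05 and 6.82% of all probe sets. The lowest adjusted p of a UGT gene was 0.709, for UGT84B2, followed by UGT73C1 and UGT78D3, all dim on 20 arrays. Genes called in only 1 genotype are therefore not shown to differ. Of the 21 brighter genes that changed, 16 had their highest mean at the same hour in both genotypes and 18 their lowest. These 21 were called on both genotypes together, which favoured such agreement in advance. Its share over all called probe sets was not computed. Without the 5 WT arrays of run 1 the count in WT was 8, on 1 array a time.

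Beta-glucosidases, which split glucosides, had 20 named genes by the symbol BGLU and digits. Of these 6 changed over the 5 times (30%, against 44.8% of all probe sets) and 4 between dark and light (20%, against 35.2%), 3 higher and 1 lower in the dark, and 0 between the genotypes in limma. One of the 6, BGLU43, was dim on 20 of 20 arrays, so no change is shown for it. PYK10, a beta-glucosidase too, is not among the 20 because of its symbol. It changed over the 5 times (adjusted p = 0.00149 in limma) and was higher in the dark by 1.25 log2. Of the 20 genes 13 were dim on 10 or more arrays, so the BGLU shares and those of all probe sets are not for equally bright signals. Among probe sets dim on fewer than 10 arrays 66.2% changed over time and 51% between dark and light. The smallest p over time were those of BGLU44, BGLU47 and BGLU42. BGLU47 was lower in the dark by -2.50 log2 (SE 0.142, adjusted p = 3.58e-09) and BGLU42 higher by 0.93 (SE 0.090), while BGLU44, with signals from 485 to 7392, had its highest mean at 8.5 h and differed by -0.02 (SE 0.120). BGLU16 was higher in the dark by 1.38 (SE 0.113). BGLU47 was dim on 6 arrays and differed by -2.26 with raised signals.

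Of 39 listed genes of UDP-sugar supply 1 had a named probe set, USP, the UDP-sugar pyrophosphorylase, which was lower in the dark by -0.32 log2 (SE 0.072, adjusted p = 0.00244). From the flavonoid list 2 of 26 symbols had one. CHIL, a chalcone isomerase-like gene, was lower in the dark by -2.44 (SE 0.331). DFR, which reduces dihydroflavonols, was higher by 0.94 (SE 0.268, adjusted p = 0.0128). CHIL was dim on 4 arrays and DFR on 3, and with raised signals they differed by -2.05 and 0.87. UGT78D1, of flavonol glycosides, was lower, with a lowest mean at 8.5 h.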

How the data were processed

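The authors deposited 1 table of linear signal intensity values, 1 per probe set and array, made with MAS5 per the submitters' processing notes. Its 2% trimmed mean was 500.0 on each array, so it had been scaled to a common mean and was used as deposited. Of 22810 probe sets 64 controls were left out. Signals under 1 were raised to 1 (95 to 244 per array) and log2 was taken. No filter on dim signals was used.

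Names came from the platform annotation (13513 probe sets with 1 gene), with loci from the TAIR10.1 gene table through Entrez identifiers. Coordinates of that table served only to order the genes for the neighbouring pairs. Listed CHI was left out because the annotated locus with that symbol is a chitinase gene. The model, in limma 3.58.1 under R 4.3.3, had a mean for each of 10 groups, the run as a block, 9 residual and 5.37 prior degrees of freedom, and an intensity trend in the variance. The threshold was an adjusted p of 0.05, 2-sided. Figures used matplotlib 3.10.9 under Python 3.11.15. For arrays, their number limits the precision.

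Run numbers pair the samples because the labels say that the experiment was done 2 times; same-run arrays deviated together, with correlations over 0.1 for 41 of the 45 group pairs (median 0.20, from -0.11 to 0.44).

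The members and lists were chosen with earlier results of these data known. Named with values were up to 6 called rises and 6 called falls of the brighter genes for each contrast of times, the 6 smallest p over time, the 3 brightest not called, the 6 brightest, the 3 smallest p between genotypes, and up to 3 called genes of each list. UGT85A7, UGT80B1, UGT84A1, UGT73B5, the other called dim genes and the neighbouring pairs were chosen after their values were seen. Alternatives were: no run block, a filter on dim probe sets (15470 kept), no variance trend, signals raised to the 40th percentile (probe sets at it on all arrays left out), 64 added before log2, quantile normalization, median centring, each run alone, and each array left out.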

Additional observations from a re-analysis of the deposited data

Results flagged for a closer look

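Among the 24 brighter UGT genes, the 4 arrays of each harvest time were examined for 1 array far from the other 3 (Dixon's test on log2 signals). Of 120 sets of 4 arrays 5 held such an array, while chance alone sets apart about 1 in 20. UGT87A2 at 1 h was 651 on WT replicate 2 and 1312 to 1415 on the others. UGT76C2 at 4 h was 155 on Atss3 replicate 1 and 258 to 266 on the others. UGT84A3 at 16 h was 379 on Atss3 replicate 1, against 529 to 562. UGT84A4 at 1 h was 172 on WT replicate 1, against 261 to 272. UGT76C1 at 16 h was 374 on WT replicate 2, against 291 to 303. These 5 lie on 5 different arrays.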

How the results depend on the processing

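Across the alternatives the counts of UGT genes called over the 5 times ran from 20 (run 2 alone) to 26. Leaving out 1 array at a time gave 22 to 25 over the 5 times, 15 to 19 in WT, 19 to 22 in Atss3, 19 to 24 between dark and light, 13 to 18 for 1 h minus 16 h, 11 to 16 for 8.5 h minus 4 h and 0 to 0 for the genotype effect over the day, at single times and its interaction with time. It gave 6 to 8 and 4 to 5 BGLU genes (time, dark), 1 to 1 for UDP-sugar in both, and 1 to 2 (1 without Atss3 1 h replicate 2) and 2 to 2 for flavonoid genes. Run 2 alone called 15 UGT genes between dark and light and 0 flavonoid and 0 UDP-sugar genes over time. Run 1 alone called 1 flavonoid gene over time and 1 in the dark, and 0 and 0 UDP-sugar genes. Without the 5 WT arrays of run 1, an alternative chosen after seeing the data, 8 UGT genes changed over time in WT, where 1 array a time remained, and 1 flavonoid gene over time. Without the replicate block 25 UGT genes were called over time, 21 in the dark, 16 and 12 in the other contrasts of times, and 0 between genotypes.

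For the named genes, 1302 of 1320 values over time kept direction and call, 14 lost the call, 4 gained it and 0 turned; of 571 genotype values 571 did. For losses with more than 1 array removed the cause was not tested. Time in 1 genotype, single times and the interaction could not be fitted within 1 run, which has 1 array a group. No gene had several probe sets, so the choice among them had no alternative. Dim signals limit 22 of the 46 genes.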
